A study of Saccharomyces cerevisiae with 14 samples.

Results

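Entry into meiosis was read here as the difference in MazF cleavage between the libraries taken at 3, 3.5 and 4 h after induction and those taken at 0, 1 and 2 h, site by site. A site was a member when it had at least 2 values on each side, with 1 entry kept per chromosome, start and strand. This gave 619 of the 1184 distinct sites in the table, in 558 of 1009 genes. The other 565 sites could not be tested, 555 of them because they had fewer than 2 values at 0 to 2 h, 46 because they had fewer than 2 at 3 to 4 h, and 36 of these on both counts. The table gives a cleavage efficiency for each site and library, a fraction that grows with the share of RNA cut. It was made from polyA RNA of diploid SK1 yeast, a laboratory strain that sporulates rapidly. The cells of both windows were MAT a/alpha diploids that were lys2/lys2, with LYS2 inserted at both copies of ho (ho::LYS2/ho::LYS2) and both copies of NDT80 disrupted (ndt80::LEU2/ndt80::LEU2). They were grown in YPD at 30 °C and then induced into meiosis. There was 1 library per hour, 6 in the comparison of 14 samples in the series, and the labels do not say whether they came from 1 culture. Neighbouring hours therefore stand in for replicates, and a p-value here rests on the spread of libraries within a window, which includes any trend within the window.

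MazF is a bacterial RNA endonuclease that cuts before ACA when the first A is unmethylated, so RNA carrying N6-methyladenosine (m6A) at that A stays whole and the cleavage efficiency of the site is lower. In budding yeast m6A is laid down on mRNA by a complex around the methyltransferase Ime4 that is active in early meiosis, and the YTH-domain protein Pho92 binds it. Ndt80 is the transcription factor that takes cells out of pachytene and into the meiotic divisions, so cells with a disrupted ndt80 arrest in prophase of the first division. A cleavage efficiency in bulk RNA is a mean over cells, so that the share of cells in meiosis and the share of transcripts methylated in each of them cannot be told apart.

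The sequences around some of the sites that the results turn on are given first. The build of the listed coordinates was not given in the sources used here, so each site was placed by its listed position within its gene. Counted from 150 bases before the start codon on the plus strand, or 149 on the minus strand, the listed position fell on an ACA of the R64 reference in 1041 of 1177 entries (88.4%), against at most 3.40% at any other of 101 offsets scanned per strand. Of the 619 tested sites, 548 had that ACA and the other 71 were left without a sequence or a place. In 475 of the 548 the ACA stood within AGACA or GGACA, called the core motif below, and in 158 the core also had an A 4 bases before and a T 4 bases after the cut A, called the extended motif. Over all 1038 listed sites with an ACA, tested or not, 89.4% had the core and 32.7% the extended motif, against 12.1% and 1.62% of the 38702 ACAs between the start and stop codons of the listed genes on the coding strand. How the submitters chose the sites was not given in the sources used here, so these shares describe the list. The following 21-base windows of R64 are written on the strand of the gene, with the letters of the core or extended motif in capitals, or ACA alone where the core is missing. The first 4 are the extended sites past the stop codon with the lowest differences. The next 4 lie inside coding sequence, all have the extended motif, and are not the lowest coding sites in order. RIM11 differed by -0.102, while SPO7 528 (-0.235) and ATE1 1466 (-0.188), coding sites with the core but not the extended motif, are not printed. These 4 therefore do not show how often low coding sites have the extended motif. AHC2 has the extended motif past the stop codon and no lower mean at 3 to 4 h, with overlapping windows. The NCE103 pair lies 6 bases apart in 1 transcript.
SPO24 394, chrXVI:646183-646203, plus strand: agcataAaAGACAcTtggcat
YDR524C-B 374, chrIV:1489564-1489584, minus strand: gagtttAgAGACAtTatactc
SAE3 525, chrVIII:262168-262188, minus strand: gcttttAgGGACAgTtctatt
BDP1 1939, chrXIV:556826-556846, plus strand: tcaataAgAGACAtTtatatg
BUL1 2938, chrXIII:815783-815803, minus strand: tttaatAaGGACAtTaaggaa
UBA4 1319, chrVIII:334230-334250, plus strand: gtagaaAaAGACAgTaatata
CVM1 1976, chrXIII:576881-576901, plus strand: caagaaAtGGACAgTaagtgg
RIM11 641, chrXIII:546605-546625, plus strand: tgtcatAgAGACAtTaagcct
AHC2 555, chrIII:259277-259297, plus strand: gcggctAtGGACAtTtttaaa
NCE103 864, chrXIV:560517-560537, plus strand: aaatagAaAGACAtTtacaaa
NCE103 870, chrXIV:560523-560543, plus strand: aaagacatttACAaagtagac

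Cleavage was lower at most sites at 3 to 4 h, but by little at the typical site. Of the 619 tested sites, 452 (73.0%) had a lower mean at 3 to 4 h, and the median difference was -0.0307, against a median standard error (SE) of 0.0482 per site. The differences ran from -0.483 at SPO24 394 to 0.139 at a site of BEM2, with 47 sites at -0.2 or below and 0 at 0.2 or above. No site passed Benjamini-Hochberg adjustment at 0.05 in limma (0%, lowest adjusted p = 0.366). At an unadjusted p under 0.05, which is used below as a mark and not as a call, 77 sites (12.4%) were lower and 2 (0.323%) were higher. All values at 3 to 4 h lay below all values at 0 to 2 h at 147 sites (23.7%), and above them at 16 (2.58%).

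Part of this difference was common to the libraries. For the 253 sites measured in all 6 libraries, the library medians of cleavage efficiency were 0.919, 0.907 and 0.879 at 0, 1 and 2 h, and 0.875, 0.867 and 0.879 at 3, 3.5 and 4 h. The window means of these medians differed by -0.0282 (exact two-sided permutation p = 0.1, the smallest p that 3 libraries against 3 allow), with the 4 h library just under the 2 h library. When each library was shifted to 1 common median, the median difference over all tested sites moved to -0.00682, and the split changed from 77 lower and 2 higher to 46 lower and 23 higher at an unadjusted p under 0.05. Scaling in place of shifting gave 49 lower and 23 higher. The share of tested sites lower was then 53.5% after shifting and 53.8% after scaling. Depth is unknown in these files, and the libraries gave a value to 299, 613, 988, 891, 1171 and 1132 sites from 0 to 4 h, so that 334 of the 619 tested sites had no value at 0 h. Values of exactly 1 were 47 of 285, 107 of 596 and 67 of 618 tested values at 0, 1 and 2 h, and 50 of 584, 28 of 618 and 36 of 612 at 3, 3.5 and 4 h. The 428 tested sites that never held a value of 1 had a median difference of -0.0310, with 44 lower and 2 higher at an unadjusted p under 0.05. A separate fit to those sites alone gave 53 lower and 6 higher.

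**Figure D1:**
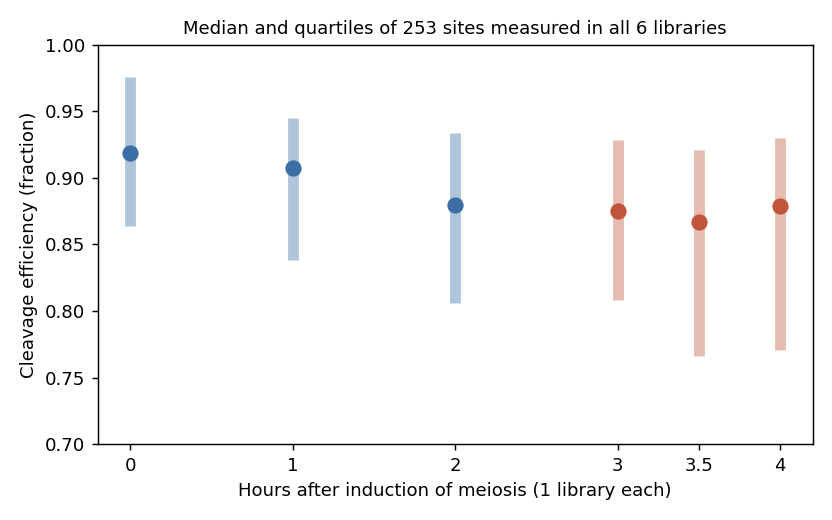
Cleavage efficiency (fraction, vertical axis from 0.7) against hours after induction, with the median as a point and the quartiles as a bar for the 253 sites measured in all 6 libraries, 0 to 2 h in blue and 3 to 4 h in red. The medians go from 0.919 at 0 h to 0.879 at 2 h and lie between 0.867 and 0.879 at 3 to 4 h, while the lower quartile goes from 0.864 at 0 h to 0.766 at 3.5 h.

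The lower tail of the sites spread further than the median. The lower quartile of the 253 complete sites was 0.864, 0.838 and 0.806 over the early libraries and 0.808, 0.766 and 0.770 over the later ones. The number of these sites cut in less than 0.5 of the RNA was 7, 9 and 13 over the early libraries and 15, 23 and 19 over the later ones. Step by step, the median change over the 253 sites was -0.0231 from 0 to 1 h, -0.0179 from 1 to 2 h, -0.000311 from 2 to 3 h, -0.0205 from 3 to 3.5 h and 0.0118 from 3.5 to 4 h. The step between the windows had the smallest median of the 5, with 127 of 253 sites lower at 3 h than at 2 h. The 34 complete sites that were lower at an unadjusted p under 0.05 were chosen on the same values, and had medians of 0.973, 0.895, 0.846, 0.756, 0.723 and 0.619 over the 6 libraries. Among them 30 of 34 were lower at 3 h than at 2 h.

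**Figure D2:**
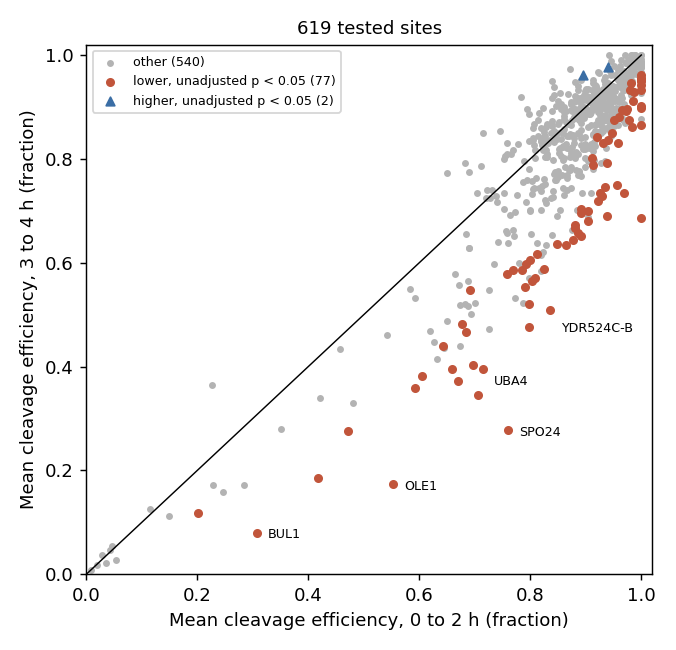
Mean cleavage efficiency at 3 to 4 h against the mean at 0 to 2 h (both fractions) for the 619 tested sites, with the line of equality. The 77 sites lower at an unadjusted p under 0.05 are red circles, the 2 higher ones are blue triangles, and SPO24, OLE1, BUL1, UBA4 and YDR524C-B are named. The 77 have early means from 0.202 to 1 and lie below the line.

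The lowest difference of all was at SPO24, which encodes a small protein involved in sporulation. At its site 40 bases past the stop codon (position 394) the cleavage efficiency was 0.985, 0.743 and 0.551 at 0, 1 and 2 h, and 0.313, 0.257 and 0.261 at 3, 3.5 and 4 h. The windows did not overlap, and much of the decline lay inside the first window. The difference of the means was -0.483 ± 0.107 (SE, 3 libraries against 3; limma, unadjusted p = 0.00204, Benjamini-Hochberg adjusted p = 0.366). YDR524C-B, an open reading frame for which no role is given here, had a site 24 bases past its stop codon with 0.955, 0.838 and 0.715 at 0 to 2 h and 0.652, 0.438 and 0.436 at 3 to 4 h. Its difference was -0.328 ± 0.0903 (SE), with the windows apart.

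Of the 15 sites with the smallest unadjusted p, UBC1 and ATE1 belong to the proteasome and ubiquitin list, and BUL1, UBA4 and YOS9 to no list used here. BUL1, an adaptor of the ubiquitin ligase Rsp5, had the lowest cleavage of the 15, with 0.386 and 0.228 at 1 and 2 h and 0.0977, 0.0615 and 0.0815 at 3 to 4 h. At UBA4, which activates the ubiquitin-like protein Urm1, the values were 0.771 and 0.659 at 1 and 2 h and 0.430, 0.413 and 0.344 at 3 to 4 h. Neither site had a value at 0 h, and at both the windows were apart. The ubiquitin-conjugating enzyme gene UBC1 had 0.99, 1 and 0.959 at 0 to 2 h and 0.823, 0.933 and 0.826 at 3 to 4 h, a difference of -0.122 ± 0.0349 (SE). ATE1, whose enzyme adds arginine to proteins marked for degradation, had 0.931, 0.849 and 0.896 against 0.771, 0.731 and 0.609. YOS9, which encodes a lectin of the degradation pathway of the endoplasmic reticulum, had 1 and 1 at 1 and 2 h against 0.881, 0.892 and 0.824. In these 3 genes too, every value at 3 to 4 h was below every earlier one. The 15 sites were chosen on these same values, so windows apart at them are a description, beside 23.7% over all tested sites.

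The other sites of the 15 belong to metabolism, membranes and signalling. REG1, the regulatory subunit of the phosphatase that acts in glucose repression, had 0.901, 0.928 and 0.845 at 0 to 2 h and 0.742, 0.591 and 0.625 at 3 to 4 h at position 2962. YMR099C, a glucose-6-phosphate 1-epimerase, had 0.985, 0.947 and 0.939 against 0.776, 0.813 and 0.661. For both sites the R64 sequence had no ACA at the listed position. ICL1, the isocitrate lyase of the glyoxylate cycle, had a site 2 bases past its stop codon with 0.907, 0.881 and 0.921 against 0.725, 0.794 and 0.579. The purine synthesis gene ADE6 was cut completely in the first 3 libraries and had 0.973, 0.933 and 0.949 afterwards, the smallest difference of the 15 at -0.0485 ± 0.0135 (SE). CVM1, whose protein joins mitochondria and vacuole, had 1 and 1 at 1 and 2 h against 0.823, 0.602 and 0.636. SPO7, a subunit of the phosphatase that restrains phospholipid synthesis at the nuclear envelope, had 1 and 0.939 against 0.833, 0.689 and 0.680. AIM41, a gene named from a screen for mitochondrial inheritance, had 0.881, 0.827 and 0.715 at 0 to 2 h against 0.587, 0.531 and 0.597. The windows were apart at all 7 of these sites, which were chosen on the same values. The adjusted p was 0.366 at each in limma with Benjamini-Hochberg adjustment.

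**Figure D3:**
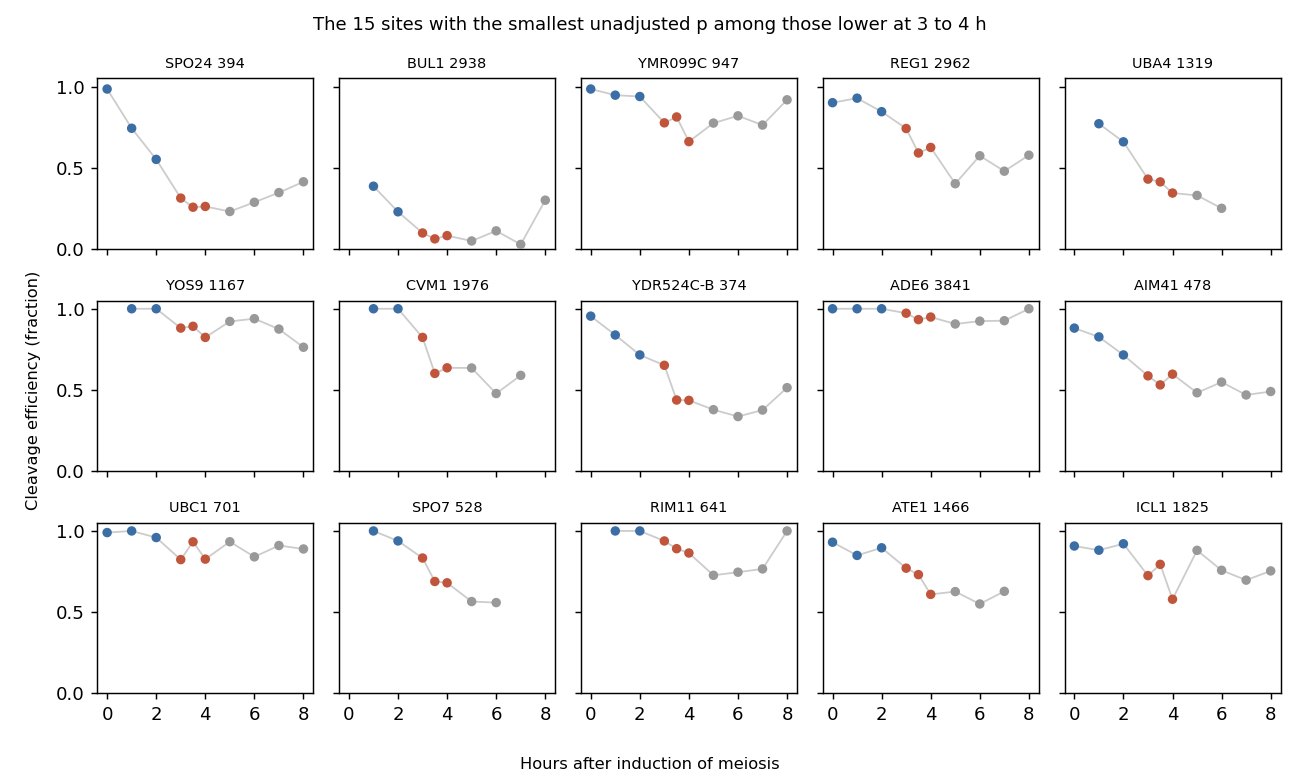
Cleavage efficiency (fraction) by hour after induction at the 15 sites with the smallest unadjusted p among those lower at 3 to 4 h, 1 point per library, with 0 to 2 h in blue, 3 to 4 h in red and the hours from 5 to 8 in grey. SPO24 goes from 0.985 to 0.261 over the first 4 h, while ADE6 stays above 0.9 in every library.

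Only 2 sites were higher at an unadjusted p under 0.05, and no difference above 0 reached 0.2. The 8 with the smallest unadjusted p were LIP5, AYR1, VMA2, HPA2, LYS2, SAS4, PFK26 and LAG2. LIP5, the lipoic acid synthase, had 0.864 and 0.924 at 1 and 2 h and 0.964, 0.959 and 0.964 at 3 to 4 h, a difference of 0.0681 ± 0.0271 (SE; limma, unadjusted p = 0.0411, Benjamini-Hochberg adjusted p = 0.369). AYR1, a reductase of lipid synthesis, had 0.939, 0.937 and 0.946 against 0.995, 0.972 and 0.963, and is the other site with an unadjusted p under 0.05. HPA2, an acetyltransferase gene, had the largest difference of the 8 at 0.135 ± 0.0570 (SE), from 0.761 and 0.806 at 1 and 2 h to 1, 0.843 and 0.912. The remaining 5, in the proton pump gene VMA2, the lysine synthesis gene LYS2, the acetyltransferase complex gene SAS4, the fructose-2,6-bisphosphate synthesis gene PFK26 and LAG2, which acts on cullin neddylation, differed by 0.0437 to 0.103. LYS2 is also the marker inserted at ho in these cells, and the reads of its copies cannot be told apart here.

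The list of regulators of meiotic entry had few tested sites. Of its 8 listed sites 5 were tested, and 4 of the 5 were lower at an unadjusted p under 0.05, against 12.4% of all tested sites. The median difference was -0.237 against -0.0307 over all tested sites. The list was drawn up with earlier results of these data known, and its lowest differences are at SPO24, which is not known here to act in entry, and RIM1, which encodes a mitochondrial single-stranded DNA-binding protein. The other members had differences of -0.237 (RIM4), -0.102 (RIM11) and 0.0282 (NDT80, whose product acts at the exit from pachytene, after entry). RIM4, an RNA-binding repressor of translation in meiosis, had 0.862 and 0.788 at 1 and 2 h and 0.659, 0.594 and 0.511 at 3 to 4 h. RIM11, the kinase that phosphorylates Ume6 and Ime1, had 1 and 1 against 0.938, 0.891 and 0.864. RIM1 had 0.823, 0.599 and 0.554 at 0 to 2 h against 0.434, 0.323 and 0.431. The windows were apart in all 3 genes and in SPO24, against 23.7% of all tested sites, and they overlapped at NDT80. Without the 1 h library 2 of 3 testable sites, and without the 2 h library 2 of 2, were at an unadjusted p under 0.05. The shares of all tested sites lower at that mark were then 8.80% and 19.5%. After shifting the libraries to 1 median, the list's median was -0.218 with 4 of 5 sites still at an unadjusted p under 0.05.

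NDT80 itself is disrupted in these cells, yet a site at coding base 1708 gave values. They were 0.935 at 0 h and 0.830 at 2 h, then 0.954, 0.854 and 0.925 at 3 to 4 h, with a difference of 0.0282 ± 0.0484 (SE). Which bases of the gene were replaced is not stated, so its values are no check of the disruption.

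The genes of the writer and reader of the mark had small differences at their own sites. Both listed sites of the methylation machinery and reader were tested, 1 was lower, and neither had an unadjusted p under 0.05. VIR1, the yeast counterpart of a subunit of the mammalian methyltransferase complex, had 1 and 1 at 1 and 2 h and 1, 0.979 and 0.958 at 3 to 4 h. The VIR1 site was among those left without a sequence or a place in R64. PHO92, the gene of the reader, had 1 and 0.953 against 0.996, 0.981 and 0.992. The differences were -0.0210 ± 0.0150 and 0.0129 ± 0.0166 (SE), and the list's median of -0.00407 turned to 0.0156 after shifting and 0.0179 after scaling.

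Fewer than 2 values in a window kept 10 of the 19 sites of recombination and synapsis out of the test. Of the 19 listed sites 15 had a value at 0 to 2 h and 9 were tested. Of the 9, 7 (77.8%) were lower and 1 (11.1%) was at an unadjusted p under 0.05, with a median of -0.0120. Over all tested sites these were 73.0%, 12.4% and -0.0307. SAE3, which helps load the meiotic recombinase Dmc1, had a site 14 bases past its stop codon with 0.780 and 0.559 at 1 and 2 h and 0.474, 0.325 and 0.315 at 3 to 4 h. PCH2, an ATPase of the synaptonemal complex checkpoint, had 0.686 and 0.568 against 0.424, 0.490 and 0.430 at position 1670. Its site at position 1283, with the extended motif, differed by 0.0363. HOP2, which acts with Mnd1 in strand invasion, had 0.935 and 0.770 against 0.729, 0.663 and 0.711. The windows were apart at SAE3, HOP2 and position 1670 of PCH2, and the other 6 sites lay between -0.0766 and 0.0363. The median of the list turned to 0.00770 after shifting and 0.00755 after scaling.

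The carbon and energy lists had medians from -0.0445 to -0.0216, on both sides of the -0.0307 over all tested sites. Of all tested sites 73.0% were lower, and 12.4% were lower at an unadjusted p under 0.05. The acetate, glyoxylate and gluconeogenesis list had 14 of 16 sites tested, 11 lower, 3 at an unadjusted p under 0.05 and a median of -0.0445. Beside ICL1 these were ACH1, a CoA transferase of acetate metabolism, with 0.846 and 0.884 against 0.697, 0.571 and 0.631 at position 154, and the lactate permease JEN1, with 1 and 1 against 0.954, 0.903 and 0.968 at position 232. Without the 1 h or the 2 h library, 1 of 11 sites of that list was at an unadjusted p under 0.05, against 8.80% and 19.5% of all tested sites. All 9 sites of glycolysis and fermentation were tested, 6 were lower, 1 at an unadjusted p under 0.05, and the median was -0.0216. That site is in PGK1, phosphoglycerate kinase, which was little cut at any hour, with 0.243, 0.196 and 0.167 at 0 to 2 h and 0.149, 0.124 and 0.0804 at 3 to 4 h. The alcohol dehydrogenase sites ADH5 839 and ADH1 829 differed by -0.0889 ± 0.0521 and -0.0281 ± 0.0262 (SE), and the ADH1 difference became 7.71e-05 after shifting and 0.000659 after scaling. In respiration 10 of 13 sites were tested, 8 were lower, 1 at an unadjusted p under 0.05, and the median was -0.0262, with ATP5, a subunit of the ATP synthase, at 1, 0.950 and 0.944 against 0.941, 0.875 and 0.867. The ADP/ATP carrier AAC1 and the cytochrome c gene CYC7 differed by -0.136 ± 0.0776 and -0.0532 ± 0.0416 (SE). After shifting, the medians of glycolysis and respiration were 0.00654 and 0.00203, after scaling 0.000813 and -0.000301, and that of acetate use stayed negative at -0.0164 and -0.0183.

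In lipid, inositol and sterol synthesis 21 of 26 sites were tested and 14 (66.7%) were lower, against 73.0% of all tested sites. An unadjusted p under 0.05 was found at 5 (23.8%) against 12.4%, and the median was -0.0617 against -0.0307. INO1, the enzyme that makes inositol phosphate, had a site 54 bases past its stop codon with 0.999, 0.780 and 0.614 at 0 to 2 h and 0.559, 0.407 and 0.463 at 3 to 4 h. OLE1, the fatty acid desaturase, had 0.771 at 0 h and 0.335 at 2 h against 0.186, 0.117 and 0.216, and no ACA in R64 at its listed position. The acyl-CoA synthetase FAA2 had 0.674 and 0.694 against 0.422, 0.476 and 0.503. The other 2 of the 5 were ERG5 1934 and FAA1 2201, at -0.145 and -0.196. Without the 3.5 h or the 4 h library, 1 of 20 lipid sites had an unadjusted p under 0.05, and without the 0, 1 or 2 h library 3 of 20, 2 of 12 and 2 of 11. The shares of all tested sites lower at that mark were 6.24% and 8.75%, and then 10.8%, 8.80% and 19.5%. Leaving out 1 library moved the median of the list to between -0.0719 and -0.0259, and after shifting it was -0.0336 with 3 of 21 at an unadjusted p under 0.05. In the proteasome and ubiquitin list 20 of 25 sites were tested, and 18 (90.0%) were lower against 73.0% of all tested sites. An unadjusted p under 0.05 was found at 4 (20%) against 12.4%. At 10 (50%) the windows were apart, against 23.7%, and the median was -0.0733. Beside UBC1 and ATE1, the ubiquitin ligase HUL5 had 0.856 and 0.898 at 1 and 2 h against 0.781, 0.493 and 0.656, and the proteasome activator BLM10 had 0.638 and 0.646 against 0.521, 0.472 and 0.327 at position 3551. This list had 2 of 20 sites at an unadjusted p under 0.05 without the 3.5 h or the 4 h library, against 4 of 20 with both. Over all tested sites the share lower at that mark also went down, from 12.4% to 6.24% and 8.75%. After shifting, its median was -0.0494 with 3 of 20 lower at an unadjusted p under 0.05.

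The remaining lists had medians from -0.0709 to 0.00716, against -0.0307 over all tested sites. Of all tested sites 73.0% were lower, and 12.4% were lower at an unadjusted p under 0.05. Heat shock and general stress had all 11 sites tested, 8 lower, 1 at an unadjusted p under 0.05 (GPH1), and a median of -0.0204, which was -0.000701 after shifting and 0.000666 after scaling. Its 3 sites with the smallest p were in GPH1, the glycogen phosphorylase, at -0.109, the disaggregase HSP104 at -0.0968 and the chaperone HSC82 at -0.0656. Cell wall and glycosylation had 21 of 26 sites tested, 15 lower, 2 at an unadjusted p under 0.05, and a median of -0.0159 that was 0.00377 after shifting. WBP1, a subunit of the oligosaccharyltransferase, had 0.524 and 0.418 at 1 and 2 h against 0.265, 0.257 and 0.303, GFA1, the first enzyme of chitin precursor synthesis, had 0.841 and 0.759 against 0.623, 0.614 and 0.577, and the phosphomannomutase SEC53 differed by -0.0780. DNA replication, repair and cohesion had 6 of 33 sites tested and 4 lower, 0 at an unadjusted p under 0.05, with a median of -0.0151 that was 0.00460 after shifting. RNR4, a subunit of ribonucleotide reductase, differed by 0.0748 with the windows apart, while the clamp loader RFC2 and the helicase subunit MCM3 differed by -0.0636 and -0.0704.

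None of the lists that follow had a site at an unadjusted p under 0.05. Autophagy and vacuolar proteases had 5 of 7 sites tested and 4 lower, with a median of -0.0228 that was 0.00535 after shifting. The protease gene PEP4 (position 1144) differed by -0.0332 and the carboxypeptidase gene CPS1 by -0.112. Translation factors had 3 of 9 sites tested and 1 lower, with TIF3, an initiation factor, at -0.0899, the helicase DBP1 at 0.0121 and the elongation factor YEF3 at 0.00496. Of 4 histone sites 2 were tested, HTA1 at 0.00787 and the linker histone HHO1 at 0.00645, and HTA1 was hardly cut, between 0.0202 and 0.0981 in the 6 libraries. Of 3 sites of mitotic growth and budding, CDC42 and the proton pump PMA1 were tested and differed by -0.0618 and -0.0800, with no ACA in R64 at either position. None of the sites of ribosome biogenesis (5), NDT80 targets of middle sporulation (4) or haploid and mating genes (2) could be tested.

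**Figure D4:**
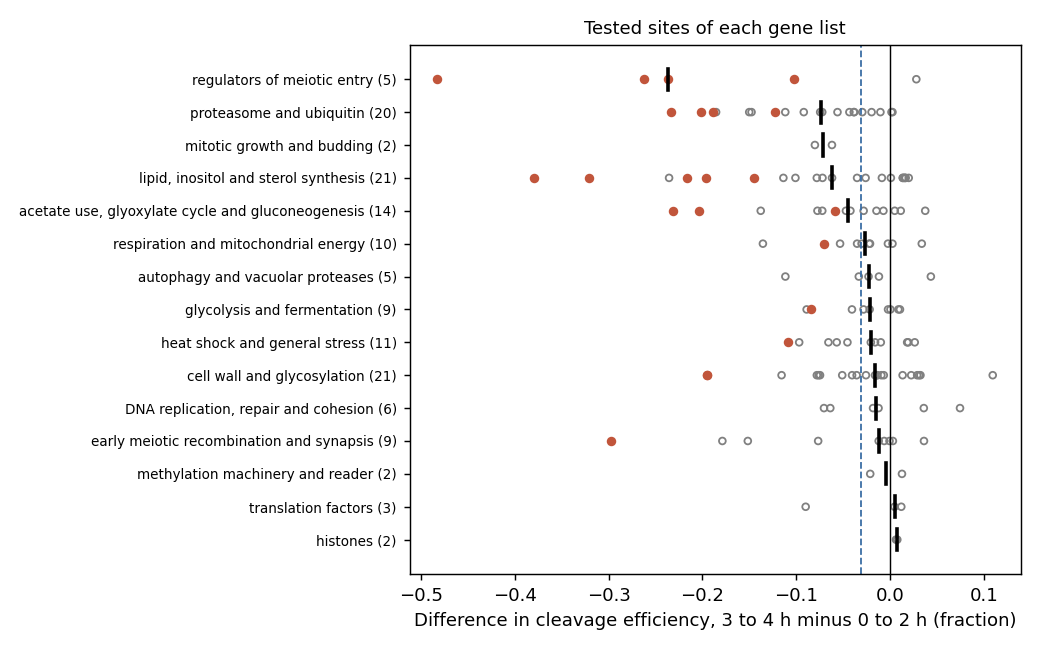
Difference in cleavage efficiency at 3 to 4 h minus 0 to 2 h (fraction) at every tested site of each gene list, with the number of sites in brackets, filled points at an unadjusted p under 0.05, a black bar at each list's median and a dashed line at the median of all 619 tested sites, -0.0307. The list named regulators of meiotic entry has the lowest median, -0.237, over 5 sites. Its lowest differences are at SPO24 and RIM1, which are not known here to act in entry.

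The difference varied between groups of sites made by position in the transcript and by the letters around the ACA. These groupings were made after the values had been seen, so they are given as counts with no test. Among the 548 placed sites, 472 lay in coding sequence, with 52 (11%) lower at an unadjusted p under 0.05 and a median difference of -0.0234. Past the stop codon lay 70 sites, with 60 lower, 16 (22.9%) at an unadjusted p under 0.05, 26 (37.1%) with windows apart, and a median of -0.0558. The sites past the stop codon also began lower, with a median early mean of 0.848 against 0.905 in coding sequence. After shifting, their median was -0.0317 while that of coding sites was -8.98e-05. Their share at an unadjusted p under 0.05 depended on single libraries, being 4 of 63 (6.35%) without the 3.5 h library and 4 of 63 without the 4 h library, against 6.31% and 9.62% of coding sites. Without the 1 h library it was 7 of 47, against 7.98% of coding sites.

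The core motif alone did not mark the lower sites. Its 475 sites had a median difference of -0.0272 with 62 (13.1%) lower at an unadjusted p under 0.05, against -0.0350 with 8 of 73 (11%) at other ACAs. The 158 extended sites had 31 (19.6%) lower at an unadjusted p under 0.05 and 55 (34.8%) with windows apart. The 290 core sites with only one of the flanking letters had 26 (8.97%) and 56 (19.3%). The 27 core sites with neither letter had 5 (18.5%) and 5 (18.5%), so the share at an unadjusted p under 0.05 did not rise step by step with the letters. Without the 3.5 h or the 4 h library the extended sites had 17 of 147 (11.6%) and 20 of 150 (13.3%) at an unadjusted p under 0.05. Without the 1 h or the 2 h library they had 10 of 63 (15.9%) and 14 of 56 (25%). All tested sites had 6.24% and 8.75% lower at that mark in the first 2 fits, and 8.80% and 19.5% in the others. After shifting, 17 of 158 (10.8%) were lower at an unadjusted p under 0.05 and the median was -0.00794. All tested sites then had 7.43% and -0.00682. Core sites with 1 flanking letter had 4.48% and -0.000990, and other ACAs 8.22% and -0.00682. In the 6 libraries the median differences were -0.0351 for the extended sites and -0.0229 for the core sites with 1 flanking letter. They were -0.0234 for the core sites with neither letter and -0.0350 at other ACAs.

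The extended motif past the stop codon gave the lowest group of all, 11 sites in 11 genes. Of the 11, 10 were lower, 7 at an unadjusted p under 0.05, 9 had windows apart, and the median difference was -0.237. Beside SPO24, YDR524C-B and SAE3 there was BDP1, a subunit of the RNA polymerase III factor TFIIIB, with 0.821 and 0.573 at 1 and 2 h and 0.390, 0.435 and 0.383 at 3 to 4 h. NCE103, a carbonic anhydrase, had 0.941, 0.757 and 0.710 against 0.649, 0.518 and 0.529, and GUK1, guanylate kinase, had 0.80, 0.859 and 0.646 against 0.631, 0.538 and 0.589. The transcription factor genes YAP5 and ZNF1 differed by -0.254 and -0.211 and the peroxiredoxin AHP1 by -0.0502. MIX14 and AHC2 carried the same letters past their stop codons and differed by -0.0261 ± 0.0821 and 0.00844 ± 0.0578 (SE). The extended motif elsewhere, in 147 sites, had a median of -0.0316, and the core without it past the stop codon, in 29 sites, had -0.0621. For the 11 sites the median was -0.209 after shifting and -0.137 without the 1 h library. The number at an unadjusted p under 0.05 was 3 of 10 without the 3.5 h library, 2 of 10 without the 4 h library and 3 of 7 without the 1 h library. The shares of all tested sites lower at that mark were then 6.24%, 8.75% and 8.80%.

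**Figure D5:**
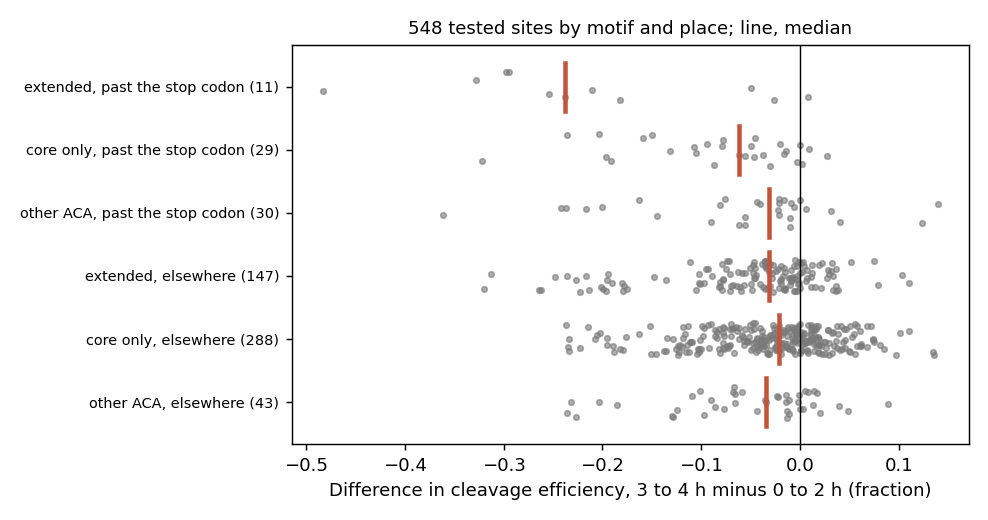
Difference in cleavage efficiency at 3 to 4 h minus 0 to 2 h (fraction) for the 548 placed sites, split by motif and by place in the transcript, with the number of sites in brackets, 1 point per site (spread vertically for visibility) and a red line at each median. The 11 extended sites past the stop codon have a median of -0.237, and the other 5 classes have medians from -0.0621 to -0.0216.

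Sites in 1 transcript share its abundance and its library, so pairs of sites in a gene were compared directly. Of 59 pairs of neighbouring tested sites in genes with more than 1 site, 0 passed Benjamini-Hochberg adjustment in limma (lowest adjusted p = 0.127), and 8 (13.6%) had an unadjusted p under 0.05. The NCE103 sites printed above lie 6 bases apart and had differences of -0.237 at position 864, the extended motif, and -0.0219 at position 870, whose ACA has no core. Position 870 was cut to 0.983, 0.939 and 0.900 at 0 to 2 h and to 0.965, 0.891 and 0.900 at 3 to 4 h. The pair's difference was -0.216 ± 0.0603 (SE; limma, unadjusted p = 0.00885, Benjamini-Hochberg adjusted p = 0.127). REG1 differed by -0.239 at position 2962 and by -0.0217 at 3300, ACH1 by -0.232 at 154 and -0.0144 at 1274, and APE2, an aminopeptidase, by 0.0271 at 1582 and -0.215 at 3310. The other 4 of the 8 pairs were in TCB3, ERG5, CPR1 and FAA1. When only the 15 pairs with values in all 6 libraries were fitted, the REG1, NCE103 and APE2 pairs passed the adjusted threshold. The REG1 pair had the same difference (-0.217) and residual spread (0.0646) in both fits. Its unadjusted p in limma nevertheless went from 0.00338 to 2.18e-06. The change came from the variance that limma shares over the pairs fitted, so these passes are not read as calls.

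The sites that were low at 3 to 4 h had low values later as well. Of the 77 sites lower at an unadjusted p under 0.05, 75 had at least 2 values at 5 to 8 h, and at all 75 the later mean was below that at 0 to 2 h. Both comparisons share the early libraries on which these sites were chosen, so this is a description. The median of the site means was 0.892 at 0 to 2 h, 0.687 at 3 to 4 h and 0.643 at 5 to 8 h, and 49 of the 75 sites were lower at 5 to 8 h than at 3 to 4 h. Over all tested sites the medians also went down, from 0.896 to 0.868 and 0.854. The matching counts over all tested sites were not made, so low later values are not shown to be particular to these 75. SPO24 had its lowest value at 5 h, 0.230, and 0.413 at 8 h. YDR524C-B had its lowest at 6 h, 0.336, and 0.514 at 8 h, and BDP1 went from 0.320 at 6 h to 0.871 at 8 h. Before the windows met, 52 of the 75 low sites with values at both hours were already lower at 2 h than at 1 h and 10 were equal, against 356 of 595 (59.8%) lower among all tested sites.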

How the data were processed

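The deposited values are a cleavage fraction per site and library, from polyA RNA treated with MazF, per the file headers. STAR 2.5.3a and bedtools 2.26.0 were used, per the submitters' processing notes. Read coverage, the rule for missing values, the choice of sites and the build were not given in the sources used here, so depth is unknown and no interval on a single value could be given. Values below 1 are often shared by several sites of a library (53.4% to 65.1% of them over the 6 libraries). The table has 1198 entries, of which 14 repeats of a position were removed. Each column took the sample whose hour its name holds, and 4 columns that match no label were not used, so the 4 control samples were not analysed here. Of 1020 gene identifiers 1002 matched the R64 gene table, and sequences were read from R64 by position within the gene.

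For every site, limma 3.58.1 (R 4.3.3) fitted the difference of window means on the fraction as deposited, with a prior variance that depends on the mean, in 6 libraries and 619 sites, with Benjamini-Hochberg adjustment at 0.05, two-sided. Pairs of sites were fitted in the same way on their difference in each library. A site counted as past the stop codon by the R64 coding sequence. The other scripts ran in Python 3.11.15. The fit per site was tested on simulated normal values with no upper bound and no trend within a window, unlike these data. The alternatives were a logit scale (values bounded at 0.01 and 0.99), an arcsine scale, library shifts and scaling, a variance model without a trend, filters on missing, low and complete values, other windows and each library left out. The members and lists were chosen with earlier results of these data known. Named sites are the 15 lower and 8 higher ones with the smallest unadjusted p, the 3 with the smallest p in each list and every tested site of the methylation machinery and of the regulators. Sites named for their motif and place, pairs or difference (BEM2, BDP1, YAP5, NCE103, ZNF1, GUK1, AHP1, MIX14, AHC2, ERG5, FAA1, BLM10, APE2, TCB3, CPR1 and position 3300 of REG1 and 1274 of ACH1) were chosen after their values were seen.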

Additional observations from a re-analysis of the deposited data

Results flagged for a closer look

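Among the 43 named sites with 4 differing values at 5 to 8 h, 6 had 1 library far from the other 3 by a limit that chance passes in about 1 in 20 groups of replicates. The 4 values here are successive hours and not replicates. RIM11 641 was cut completely at 8 h, with a value of 1. PHO92 228 also had a value of 1 at 8 h. INO1 1805 had 0.524 at 8 h, above its other 3 late values. VIR1 1794 had 0.975 at 5 h. TIF3 1484 had 0.599 at 6 h, and RIM4 673 had 0.640 at 6 h. None of these libraries entered the comparison of 3 to 4 h with 0 to 2 h, and the cause was not tested.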

How the results depend on the processing

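No site passed the adjusted threshold under any of the 18 alternatives. The numbers lower and higher at an unadjusted p under 0.05, 77 and 2, were 46 and 23 after shifting the libraries, 49 and 23 after scaling them, and 42 and 2 for complete sites. The number higher was 1 on the logit and the arcsine scale, 6 without sites holding a value of exactly 1, 6 with all 10 libraries in the model and 5 for 1 and 2 h against 3 to 5 h. With at least 1 value on each side and 3 in all, 992 sites were tested, with 98 lower and 17 higher. Among the 619 sites of the main test, 3 were higher in that fit. Leaving out 1 library gave 25 to 93 lower (25 without 1 h, 36 without 3.5 h, 51 without 2 h or 4 h) and 1 to 5 higher, from as few as 262 sites. Pairs past the threshold numbered 3 with complete pairs and 0 to 4 with 1 library left out (REG1 without 1 h; REG1, CPR1, APE2 and NCE103 without 2 h; REG1 and TCB3 without 3 h). Only 15 pairs were complete, and 18 and 16 were left without 1 h and 2 h, against 59 in the main fit. The variance shared over the pairs differs between these fits. Of 972 values at 61 named sites, 960 kept their direction and side, and 12 changed sign. These were VIR1 1794 after scaling (0.000843), ADH1 829 after shifting (7.71e-05) and scaling (0.000659), YEF3 2573 on the logit scale (-0.00651) and without 3 h or 3.5 h (-0.0179 and -0.0160, with 0.0488 the highest with 1 library left out), HTA1 399 for 1 and 2 h against 3 to 5 h (-0.00275) and without 0, 2 or 3 h (-0.00523, -0.00229 and -0.0140, with 0.0311 the highest), and HHO1 772 on the logit scale (-0.0780) and for 1 and 2 h against 3 to 5 h (-0.00138). The cause was not tested, except that leaving out 1 or 2 h leaves fewer sites. No paired analysis was possible because the replicate numbers only order the hours within a window and pair no samples. Unknown coverage limits all values, and 3 libraries against 3 limit the exact permutation test of the library level to p = 0.1.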

Other observations

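The base 3 before the cut A also varied with the difference, an observation made after the values were seen and given with no test. With a G there, 13 of 50 placed sites (26.0%) were lower at an unadjusted p under 0.05, 21 (42.0%) had all values at 3 to 4 h below all earlier ones, and the median difference was -0.0616. With an A, C or T the first share was 10.5%, 9.43% and 13%, and the median differences were -0.0230, -0.0279 and -0.0243.

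Sites of intermediate cleavage differed most. The 49 sites with a mean over the 6 libraries between 0.5 and 0.7 were all lower at 3 to 4 h, with a median difference of -0.191, against -0.0171 at the 242 sites with a mean above 0.9. A site with low late values has a low mean by construction, so the mean does not predict the difference.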
